A study of Xenopus laevis with 8 samples.

Results

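The genes described here are those of Xenopus laevis, the African clawed frog, that are named for fibroblast growth factors (FGFs), for their receptors or for the factors that answer and restrain the ERK kinase cascade. They were chosen by name alone: every row of the gene table whose symbol began with fgf, fgfr, fgfrl, flrt, spry, spred, dusp or etv followed by a digit. That gave 120 of the 45035 genes in the table, with the long (.L) and short (.S) copies of the frog's duplicated genome counted as separate genes. Of the 120, 75 had enough counts to be tested, among 23130 tested genes in all.

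All libraries came from wild-type ectodermal explants, the outer tissue of the embryo cut out and cultured in 0.6 x MMR, a buffered salt solution, to the early neurula stage. The explants expressed Chordin and Flag-tagged Pinhead together (libraries 7 and 8), Flag-tagged Pinhead alone (libraries 5 and 6), Chordin alone (libraries 3 and 4) or neither (control, libraries 1 and 2). Chordin is a secreted protein that binds bone morphogenetic proteins (BMPs) and keeps them from their receptors, and Pinhead is a secreted protein for which earlier work has described a link to FGF receptor signalling. The labels give no dose of either factor. Nor do they say whether replicate libraries stem from separate batches of embryos, so p-values measure only how far these libraries vary, which can be technical. The comparisons ask how each factor, alone and with the other, changed the transcripts of the FGF pathway.

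FGF ligands bind receptor tyrosine kinases together with heparan sulfate chains of the matrix, and the activated receptors signal through Ras, Raf and MEK to ERK. ERK switches on ETS-type transcription factors and, with them, a set of inhibitors (Sprouty, Spred and dual-specificity phosphatases) that dampen the same cascade, so that transcripts of these inhibitors are widely used as a readout of FGF signalling. In the frog embryo the pathway is known for forming and maintaining mesoderm and for its part, beside BMP inhibition, in neural induction.

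The libraries held 15052017 to 19677493 counts, and CPM (counts scaled to library size, the scale of all levels below) were such that 1 CPM stood for 14.5 to 19.0 counts. Markers of the labelled tissue were present in every library: the summed level of 25 epidermal genes was 3468 to 5327 CPM with Chordin and Pinhead together, 15848 to 16056 CPM with Pinhead, 5292 to 5520 CPM with Chordin and 18052 to 18096 CPM in control explants. The sum of 26 neural genes was 4831 to 5071 CPM with both factors and 120 to 191 CPM with Pinhead, against 3978 to 4250 CPM with Chordin and 202 to 231 CPM in control. The sum of 12 notochord genes was 80.2 to 161 CPM with both factors and 96.0 to 146 CPM with Pinhead, against 3.43 to 4.81 CPM with Chordin and 4.41 to 4.53 CPM in control. At least 1 CPM was reached in both libraries of a group by 26 of the 26 neural genes with both factors, 13 with Pinhead, 21 with Chordin and 14 in control, and by 10, 3, 1 and 0 of the 12 notochord genes in the same order of groups. The notochord sum with Pinhead alone thus rested on few genes, t.S (levels below) among them. The neural genes en2.L and en2.S were at 0 with Pinhead and in control; of the notochord genes, col2a1.S, col8a1.S and shh.S were at 0 with Pinhead, col8a1.S, foxa4.S, shh.L and t.L with Chordin, and col8a1.S and foxa4.L in control. The sum of 20 somite and muscle genes was 70.3 to 128 CPM with both factors, 55.6 to 77.1 CPM with Pinhead, 41.5 to 46.1 CPM with Chordin and 9.29 to 10.4 CPM in control. Of these 20 genes, 11 reached 1 CPM in both libraries with both factors, 7 with Pinhead, 4 with Chordin and 1 in control, so the sum with Chordin rested on few of them. The somite and muscle genes at 0 were mylpf.S and tnnc2.S with Pinhead, both mespa, msgn1 and myf5 copies and tbx6.S with Chordin, and both mespa and myf5 copies, msgn1.S, mylpf.S, myod1.S, pcdh8.S and tnnc2.S in control. Libraries 7 and 8 differed most of the replicate pairs, with a mean chi-square per gene of 12.8, against 3.19 to 9.40 in the other groups.

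Chordin changed more of the tested genes of the pathway than Pinhead did, and with either factor more genes rose than fell. Against control explants, 46 of 75 genes rose with Chordin and 13 fell, where 31.7% of all tested genes rose and 32% fell. With Pinhead, 23 rose and 3 fell, against a background of 6.75% and 3.92%. With both factors, 49 rose and 10 fell, against 33.3% and 32.1%. The median log2 change of the 75 genes was 0.97 with Chordin, 0.22 with Pinhead and 1.14 with both (1.06 when genes near 0 counts in a group are set at their bound), against medians over all tested genes of 0, -0.005 and 0.03. A gene can pass the count filter through the one group in which it is high, so these counts describe the tested genes and not all 120. The 23 genes that rose with Pinhead became 10 without control library 1, 14 without control library 2, Chordin library 3 or 4 or Pinhead library 5, 15 without Pinhead library 6, and 28 without either library of the combined group. The 3 that fell became 1 without library 1, 2, 3 or 4 and 5 without library 7 or 8.

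Adding Pinhead to Chordin raised 10 of the 75 genes and lowered 7 relative to Chordin alone, where 6.46% of all tested genes rose and 4.25% fell. Adding Chordin to Pinhead raised 33 and lowered 12 relative to Pinhead alone, against 30.7% and 31%. The difference between the Pinhead effect with Chordin and the Pinhead effect without it, tested as an interaction, was positive for 4 genes and negative for 17, against 5.24% and 5.72% of all tested genes. Without library 3 the 10 higher and 7 lower genes of the combined group against Chordin became 6 and 2, and without library 4 they became 6 and 3. The 4 positive interactions became 1 without library 1 or 3, 2 without library 2, 4 or 5 and 7 without library 8, and the 17 negative ones became 10 without library 1, 3 or 4 and 11 without library 2.

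**Figure D1:**
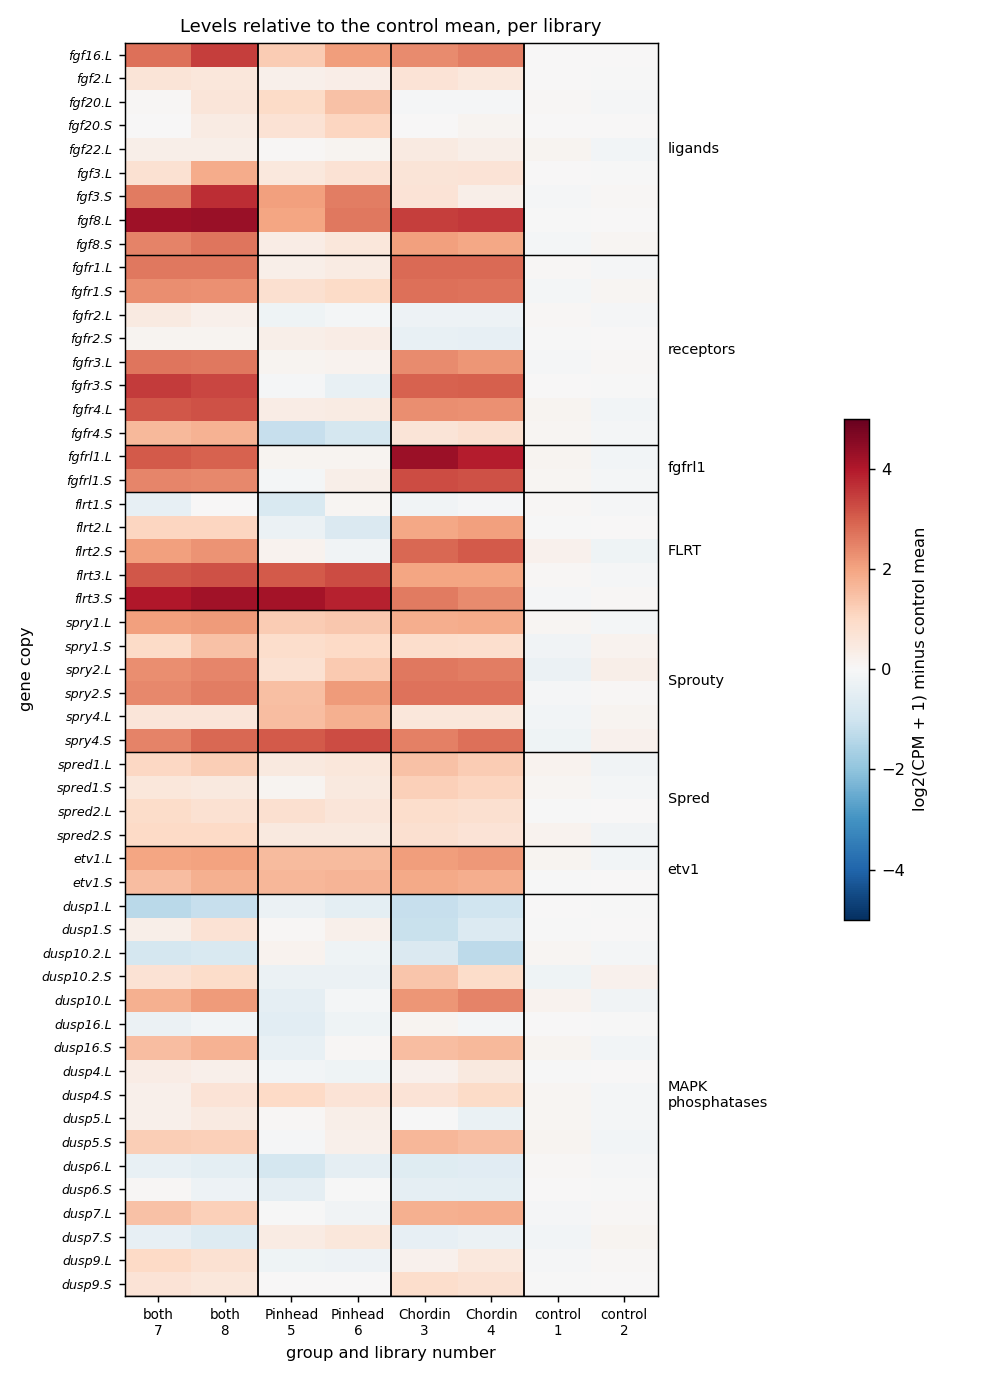
Level of each tested gene copy in each library, as log2(CPM + 1) minus the mean of the 2 control libraries, with the groups from left to right and the roles from top to bottom. Red is higher and blue lower than control; the receptor rows other than fgfr2 are red with both factors and with Chordin, while the Sprouty rows are red in all 3 treated groups.

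The ligands came on in different combinations. fgf8, a secreted ligand that maintains mesoderm and takes part in neural patterning, was raised by either factor in its .L copy. fgf8.L was at 24.7 and 26.3 CPM with both factors, 4.38 and 7.64 CPM with Pinhead, 14.2 and 14.8 CPM with Chordin, and 0.362 and 0.394 CPM in control. The groups did not overlap, and the combined libraries were highest. The log2 change against control was 6.05 ± 0.33 with both factors (SE; adjusted p = 6.75e-07), 3.94 ± 0.38 with Pinhead (adjusted p = 0.000366) and 5.24 ± 0.34 with Chordin (adjusted p = 1.66e-06). Its interaction was -3.13 ± 0.45 (adjusted p = 0.00422): Pinhead added 0.81 ± 0.20 to Chordin (adjusted p = 0.0301), a call that was lost without any 1 of libraries 1 to 4. The .S copy was at 7.73 and 9.01 CPM with both factors, 1.00 and 1.31 CPM with Pinhead, 5.54 and 5.02 CPM with Chordin, and 0.483 and 0.656 CPM in control. fgf8.S rose with both factors (log2 change 3.87 ± 0.29) and with Chordin (3.20 ± 0.30, adjusted p = 1.48e-05), and its change of 1.00 ± 0.36 with Pinhead did not pass the test (adjusted p = 0.115).

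fgf3, a ligand of the FGF7 group with roles in the ear and hindbrain, had its highest mean in the combined group in both copies. Against Pinhead alone that group did not pass the test for either copy (log2 change 1.45 for .L and 1.07 for .S). fgf3.S was at 5.17 and 12.3 CPM with both factors, 3.27 and 5.16 CPM with Pinhead, 0.664 and 0.273 CPM with Chordin, and 0 and 0.0656 CPM in control. Library 8 was the higher of the combined pair, and library 7 stood at the level of the higher Pinhead library. The groups with Pinhead did not overlap those without. The control value rests on 1 count, so that the ratio to control was 284 with both factors (95% counting interval 50.6 to 11258; adjusted p = 5.55e-05) and 130 with Pinhead (23.0 to 5176; adjusted p = 0.00362, lost without library 1). Against Chordin alone the combined group was higher by a log2 change of 4.21 ± 0.57 (adjusted p = 0.00204), and by 4.95 without library 3 and 3.45 without library 8. The .L copy was at 0.872 and 2.91 CPM with both factors, 0.580 and 0.826 CPM with Pinhead, 0.720 and 0.765 CPM with Chordin, and 0.121 and 0.0656 CPM in control. fgf3.L rose with both factors, at 20.6 times control (counting interval 6.76 to 103; adjusted p = 0.0014), and with Chordin, at 7.87 times control (2.42 to 40.5; adjusted p = 0.0211, lost without any 1 of libraries 1 to 4).

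fgf16.L, a ligand of the FGF9 group, had no counts in control explants. It was at 5.67 and 9.85 CPM with both factors, 1.42 and 3.23 CPM with Pinhead alone and 4.10 and 4.92 CPM with Chordin, which is at least 83.4-fold, 23.4-fold and 47.8-fold higher than the 3 counts that 0 counts over the control group allow. All 3 increases passed the test (adjusted p = 5.3e-05, 0.00671 and 0.000144), that with Pinhead not without library 1. The log2 difference of the combined group from Pinhead alone was 1.78 ± 0.41 (adjusted p = 0.00537; 2.44 without library 6) and that from Chordin did not pass the test (0.79 ± 0.38, adjusted p = 0.243).

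fgf20, also of the FGF9 group, followed another order: both copies were highest with Pinhead alone. fgf20.L was at 0.0623 and 0.559 CPM with both factors and 1.00 and 1.86 CPM with Pinhead, had no counts with Chordin, and was at 0.0603 and 0 CPM in control. Its ratio of Pinhead to control was 43.7 (counting interval 7.46 to 1763; adjusted p = 0.0267), and that of fgf20.S at least 8.86-fold (adjusted p = 0.0464); each call was lost without any 1 of libraries 1 to 6. With both factors fgf20.L was lower than with Pinhead (log2 change -2.11 ± 0.76, adjusted p = 0.0388), a call lost without any 1 of libraries 1 to 7; the value was -1.35 without library 7 and -4.32 without library 8. These levels stood near the limit of what the depth resolves, since 3 counts over a group correspond to 0.0825 to 0.0943 CPM.

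fgf2.L, a ligand without a classical secretion signal, changed by less than 2-fold: 4.11 and 3.80 CPM with both factors, 2.90 and 3.10 CPM with Pinhead, 4.21 and 3.71 CPM with Chordin, and 2.29 and 2.23 CPM in control. The log2 change was 0.80 ± 0.23 with both factors (adjusted p = 0.012, lost without library 1, 2 or 7) and 0.81 ± 0.23 with Chordin (adjusted p = 0.0119, lost without library 1, 2 or 3). fgf22.L, the other tested ligand, stayed between 0.328 and 0.996 CPM in all 8 libraries and passed the test in none of the 6 comparisons. Of 32 ligand copies, 23 missed the count filter, and the highest level of any untested member in any library was 0.894 CPM. Among them was fgf4.L, the ligand known in the frog as embryonic FGF, at 0 and 0.28 CPM with both factors and 0.158 and 0.619 CPM with Pinhead, with no counts in Chordin and control libraries. It was not tested.

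**Figure D2:**
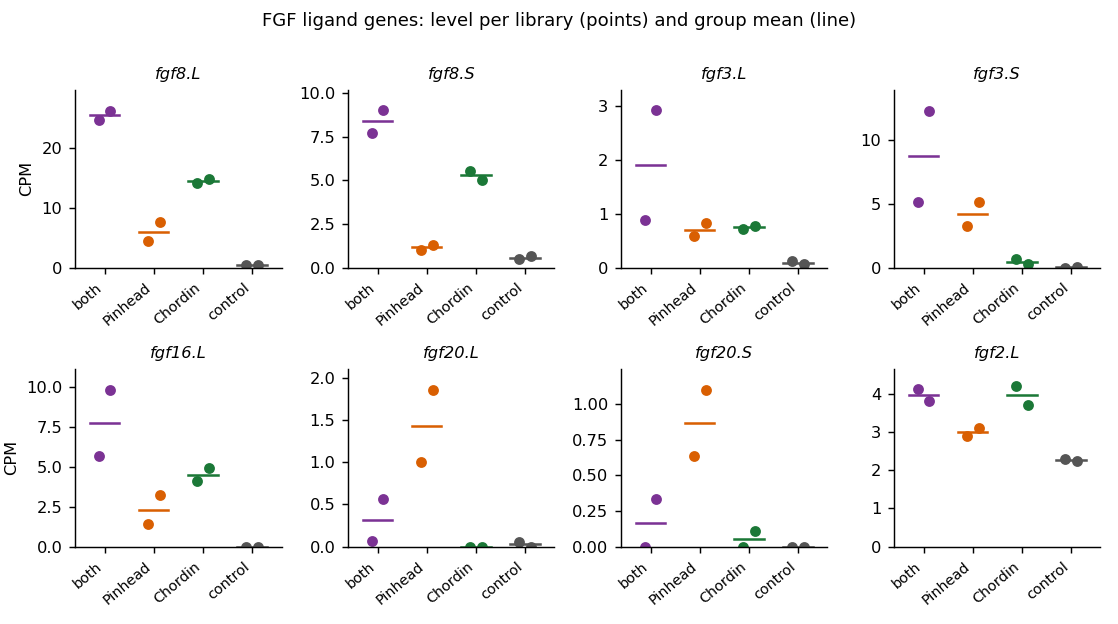
Level (CPM) of 8 ligand gene copies in each library (points) with the group mean (bar), one panel per gene with its own axis from 0. fgf8.L, fgf3.S and fgf16.L were highest with both factors, while fgf20.L and fgf20.S were highest with Pinhead alone.

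Of the 8 receptor copies, 7 rose with both factors (87.5%, against 33.3% of all tested genes). With Pinhead, 3 rose and 1 fell (37.5% and 12.5%, against 6.75% and 3.92%), and with Chordin 6 rose and 1 fell (75% and 12.5%, against 31.7% and 32%). fgfr1, the receptor most studied in frog mesoderm, rose with Chordin in both copies. fgfr1.L was at 192 and 190 CPM with both factors, 36.2 and 39.4 CPM with Pinhead, 220 and 221 CPM with Chordin, and 30.8 and 28.8 CPM in control. Its log2 change was 2.68 ± 0.09 with both factors and 2.89 ± 0.09 with Chordin (adjusted p = 4.92e-08 and 2.81e-08), and 0.34 ± 0.09 with Pinhead (adjusted p = 0.0418, lost without any 1 of libraries 1 to 6). fgfr1.S was at 56.6 and 55.4 CPM with both factors, 19.4 and 21.7 CPM with Pinhead, 76.6 and 74.9 CPM with Chordin, and 9.96 and 11.2 CPM in control. fgfr1.S rose with Pinhead by 0.95 ± 0.11 (adjusted p = 0.00113) and with Chordin by 2.84 ± 0.11 (adjusted p = 8.7e-08), and the combined group was lower than Chordin alone (log2 change -0.44 ± 0.10, adjusted p = 0.0209, lost without library 3 or 4).

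fgfr4, a receptor that in the frog is expressed in neural tissue and mesoderm, was higher with both factors than with either alone, in both copies. fgfr4.L was at 130 and 137 CPM with both factors, 18.7 and 19.7 CPM with Pinhead, 75.1 and 74.9 CPM with Chordin, and 15.8 and 13.1 CPM in control. The combined group was higher than Chordin alone by 0.83 ± 0.10 (adjusted p = 0.00111) and than Pinhead alone by 2.80 ± 0.11 (adjusted p = 1.17e-07). fgfr4.S was at 120 and 130 CPM with both factors, 16.6 and 20.2 CPM with Pinhead, 61.2 and 67.1 CPM with Chordin, and 40.7 and 36.0 CPM in control. Here Pinhead alone lowered the transcript (log2 change -1.06 ± 0.13, adjusted p = 0.00117), Pinhead on top of Chordin raised it (0.96 ± 0.12, adjusted p = 0.00113), and the interaction was 2.03 ± 0.17 (adjusted p = 0.000323). fgfr4.L did not show the decrease with Pinhead (0.41 ± 0.11, adjusted p = 0.0507).

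fgfr3, which in vertebrates is expressed in the neural plate, had its 2 copies at 21.1 and 20.4 CPM (.L) and 32.8 and 28.9 CPM (.S) with both factors, and at 2.85 and 2.89 CPM and 1.85 and 1.31 CPM with Pinhead. With Chordin they were at 16.6 and 15.02 CPM and 21.8 and 22.4 CPM, and in control at 2.29 and 2.62 CPM and 1.99 and 1.97 CPM. fgfr3.L rose by 2.68 ± 0.16 and fgfr3.S by 3.48 ± 0.17 with Chordin (adjusted p = 1.03e-06 and 3.79e-07), and neither changed past the threshold with Pinhead (adjusted p = 0.538 and 0.498). Adding Pinhead to Chordin gave 0.39 ± 0.13 and 0.48 ± 0.13, short of the threshold (adjusted p = 0.0896 and 0.0502).

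fgfr2 changed by less than 2-fold in every comparison. fgfr2.L was at 74.6 and 65.4 CPM with both factors, 46.7 and 50.6 CPM with Pinhead, 45.8 and 45.8 CPM with Chordin, and 57.4 and 51.8 CPM in control. fgfr2.S was at 55.1 and 54.8 CPM with both factors, 60.7 and 65.4 CPM with Pinhead, 38.5 and 37.0 CPM with Chordin, and 49.2 and 50.7 CPM in control. fgfr2.S fell with Chordin (log2 change -0.40 ± 0.09, adjusted p = 0.0034, lost without library 4), and both copies were higher in the combined group than with Chordin alone, by 0.61 ± 0.10 and 0.54 ± 0.09 (adjusted p = 0.00608 and 0.00529, both lost without library 3 or 4). Its increase with Pinhead (0.33 ± 0.09, adjusted p = 0.0448) and that of fgfr2.L with both factors (0.36 ± 0.10, adjusted p = 0.0132) were lost without any 1 of libraries 1 to 6 and without library 2 or 7. Counts over few genes moved accordingly: the 3 receptor copies higher with Pinhead became 1 without any 1 of libraries 1 to 6.

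fgfrl1, a receptor-like protein that binds FGFs but lacks the kinase domain, rose strongly with Chordin and less with the combination. fgfrl1.L was at 11.7 and 10.7 CPM with both factors, 0.686 and 0.688 CPM with Pinhead, 28.7 and 22.1 CPM with Chordin, and 0.664 and 0.394 CPM in control. fgfrl1.S was at 8.22 and 8.17 CPM with both factors, 0.580 and 1.10 CPM with Pinhead, 15.2 and 14.4 CPM with Chordin, and 0.845 and 0.590 CPM in control. The increase with Chordin was 5.55 ± 0.26 for .L and 4.34 ± 0.27 for .S (adjusted p = 2.67e-07 and 1.32e-06). Adding Pinhead to Chordin lowered them (log2 change -1.18 ± 0.17 and -0.85 ± 0.19, adjusted p = 0.00285 and 0.0236), calls that were lost without library 3 for .L and without library 3 or 4 for .S. The interaction did not pass the test for either copy (adjusted p = 0.0638 and 0.164).

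The levels of fgfr1, fgfr3, fgfr4 and fgfrl1 were higher in the groups with Chordin, where the neural marker sum given above was also higher and the epidermal sum lower. The sum of 14 endoderm genes was higher there too, at 475 to 476 CPM with both factors and 530 to 536 CPM with Chordin. It was 83.4 to 108 CPM with Pinhead and 129 CPM in control. At least 1 CPM in both libraries was reached by 3 of these genes with both factors, 2 with Chordin, 2 with Pinhead and 4 in control. The endoderm sums thus rested on few genes. Of the 9 tested, 4 rose and 3 fell with Chordin (44.4% and 33.3%, against 31.7% and 32% of all tested genes). The counts with both factors were also 4 and 3 (against 33.3% and 32.1%). The levels of fgfr2 did not follow these sums. The part of a change in tissue composition in the receptor changes was not tested, and in such bulk samples fewer cells of a type and less RNA per cell cannot be told apart.

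**Figure D3:**
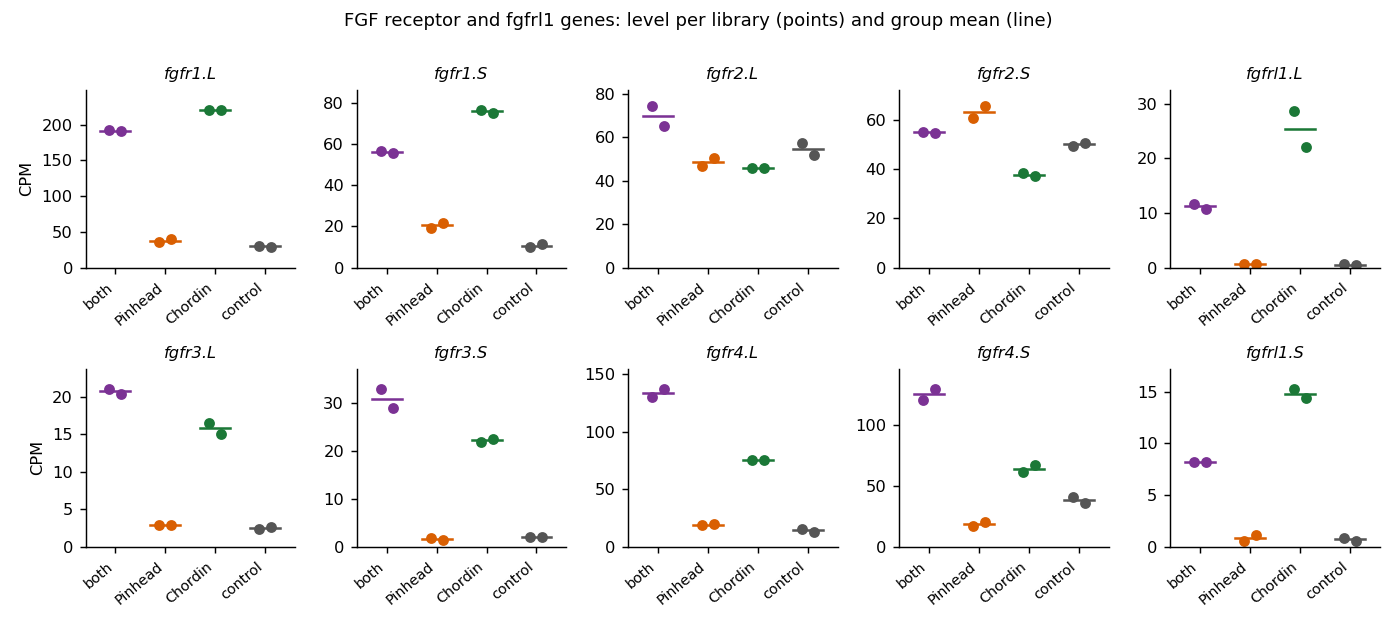
Level (CPM) of the 8 receptor copies and the 2 fgfrl1 copies in each library (points) with the group mean (bar), one panel per gene with its own axis from 0. The groups with Chordin stood well above Pinhead and control for fgfr1, fgfr3, fgfr4.L and fgfrl1; fgfr2 differed little, and fgfr4.S was lowest with Pinhead.

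The FLRT genes encode membrane proteins with leucine-rich repeats; FLRT3 is known in the frog as a partner of FGF receptors that is itself induced by FGF. In flrt3 the combined group stood at the level of Pinhead alone, above Chordin. flrt3.L was at 35.4 and 37.5 CPM with both factors, 34.3 and 38.7 CPM with Pinhead, 15.3 and 15.6 CPM with Chordin, and 3.38 and 3.02 CPM in control. flrt3.S was at 26.5 and 30.4 CPM with both factors, 29.7 and 23.8 CPM with Pinhead, 9.47 and 7.76 CPM with Chordin, and 0.664 and 0.787 CPM in control. The libraries with Pinhead overlapped whether or not Chordin was present, and all stood above the Chordin libraries, which stood above control. With Pinhead the log2 change was 3.51 ± 0.13 for .L and 5.20 ± 0.23 for .S (adjusted p = 4.91e-06 and 6.77e-06), and with Chordin 2.27 ± 0.14 and 3.56 ± 0.26 (adjusted p = 1.17e-06 and 3.06e-06). Against Pinhead alone the combined group differed by -0.0021 ± 0.11 and 0.09 ± 0.15 (adjusted p = 0.987 and 0.64), and against Chordin alone it was higher by 1.23 ± 0.11 and 1.72 ± 0.16 (adjusted p = 0.000231 and 0.000302). The interactions were -2.27 ± 0.18 and -3.47 ± 0.30 (adjusted p = 0.000257 and 0.00037). The notochord marker sum given above was also higher in the groups with Pinhead, and its part in the flrt3 levels was not tested. With Pinhead alone that sum rested on few genes. Of the 12 notochord genes, 2 were called higher with Pinhead, t.L and t.S (16.7%, against 6.75% of all tested genes). The median log2 change of the 12 was -0.03.

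flrt2, a relative best known in cell adhesion and axon guidance, followed Chordin instead. flrt2.L was at 23.9 and 24.2 CPM with both factors, 8.70 and 6.26 CPM with Pinhead, 44.6 and 49.0 CPM with Chordin, and 10.8 and 11.1 CPM in control. It rose with Chordin by 2.095 ± 0.14 (adjusted p = 2.29e-06) and was lower in the combined group than with Chordin alone (log2 change -0.96 ± 0.13, adjusted p = 0.00234). flrt2.S rose with Chordin by 3.11 ± 0.18 (adjusted p = 9.68e-07) and was lower in the combined group by a log2 change of -0.83 ± 0.16 (adjusted p = 0.0102, lost without library 3 or 4).

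All 6 tested Sprouty copies rose in each of the 3 treated groups against control. By DESeq2, 5 rose with Chordin and 5 with both factors, spry4.L losing its call in each. Of all tested genes, 33.3% rose with both factors, 6.75% with Pinhead and 31.7% with Chordin. Sprouty proteins are intracellular inhibitors of receptor tyrosine kinase signalling, and their genes are targets of FGF signalling in many tissues. spry1.L was at 33.3 and 35.4 CPM with both factors, 19.1 and 19.9 CPM with Pinhead, 28.0 and 28.6 CPM with Chordin, and 7.85 and 6.76 CPM in control. No groups overlapped; the log2 change was 2.23 ± 0.12 with both factors, 1.41 ± 0.12 with Pinhead and 1.95 ± 0.12 with Chordin (adjusted p = 5.92e-07, 0.000184 and 1.13e-06). spry1.S was at 9.28 and 13.5 CPM with both factors, 8.54 and 9.43 CPM with Pinhead, 8.64 and 8.52 CPM with Chordin, and 3.62 and 4.99 CPM in control. Its treated groups overlapped, and its increase with Pinhead (1.06 ± 0.23, adjusted p = 0.0218) was lost without any 1 of libraries 1 to 6.

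spry2.S was at 14.5 and 16.3 CPM with both factors, 7.23 and 11.6 CPM with Pinhead, 17.9 and 17.9 CPM with Chordin, and 1.81 and 2.03 CPM in control. The log2 change was 3.003 ± 0.25 with both factors, 2.28 ± 0.26 with Pinhead and 3.22 ± 0.25 with Chordin (adjusted p = 8.23e-06, 0.00101 and 4.86e-06). spry2.L was at 14.5 and 15.8 CPM with both factors, 4.17 and 6.54 CPM with Pinhead, 18.3 and 16.99 CPM with Chordin, and 1.51 and 2.76 CPM in control. The increase of spry2.L with Pinhead (1.32 ± 0.30, adjusted p = 0.0261) was lost without library 1, 3, 4 or 6, while those with Chordin (3.06 ± 0.28) and with both factors (2.84 ± 0.28) were kept in every fit run (adjusted p = 1.26e-05 and 2.11e-05).

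spry4 was the Sprouty gene whose 2 copies had their highest mean with Pinhead alone. The difference from the combined group passed the test for spry4.L and not for spry4.S (log2 change -0.53). spry4.L was at 3.43 and 3.52 CPM with both factors, 7.70 and 9.08 CPM with Pinhead, 3.32 and 3.39 CPM with Chordin, and 1.69 and 2.23 CPM in control. Its log2 change was 2.09 ± 0.23 with Pinhead (adjusted p = 0.000797) and 0.78 ± 0.24 with Chordin (adjusted p = 0.019, lost without library 1, 3 or 4), and the combined group was lower than Pinhead alone (log2 change -1.27 ± 0.21, adjusted p = 0.000651). Against control the combined group rose by 0.83 ± 0.24 (adjusted p = 0.0139, lost without library 1). spry4.S was at 7.48 and 10.1 CPM with both factors, 11.7 and 13.8 CPM with Pinhead, 7.75 and 9.39 CPM with Chordin, and 0.302 and 0.787 CPM in control. It rose by 4.02 ± 0.35 with both factors, 4.55 ± 0.34 with Pinhead and 3.98 ± 0.35 with Chordin (adjusted p = 1.12e-05, 9.47e-05 and 1.15e-05). Without control library 2 these became 4.84, 5.36 and 4.80.

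When Pinhead was added to Chordin, the 6 log2 changes relative to Chordin alone lay between -0.22 and 0.41, with adjusted p of 0.132 or more. The interaction was negative and past the threshold in 5 of the 6 copies (83.3%, against 5.72% of all tested genes). The values ran from -1.14 ± 0.16 for spry1.L to -4.51 ± 0.43 for spry4.S. That of spry2.L (-1.54 ± 0.38, adjusted p = 0.0328) was lost without library 1, 3, 4 or 6, and that of spry1.S did not pass (-0.65 ± 0.31, adjusted p = 0.213). Leaving out library 7 made 1 Sprouty copy higher with both factors than with Chordin alone. In the 3 groups where the Sprouty copies rose, the somite and muscle sum was also higher than in control. The neural sum was higher in the 2 groups with Chordin and the notochord sum in the 2 with Pinhead. As given above, the notochord sum with Pinhead alone and the somite and muscle sum with Chordin alone rested on few genes. The same sums were higher in the groups in which etv1 and il17rd.S rose, and the part of these markers in the changes was not tested.

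**Figure D4:**
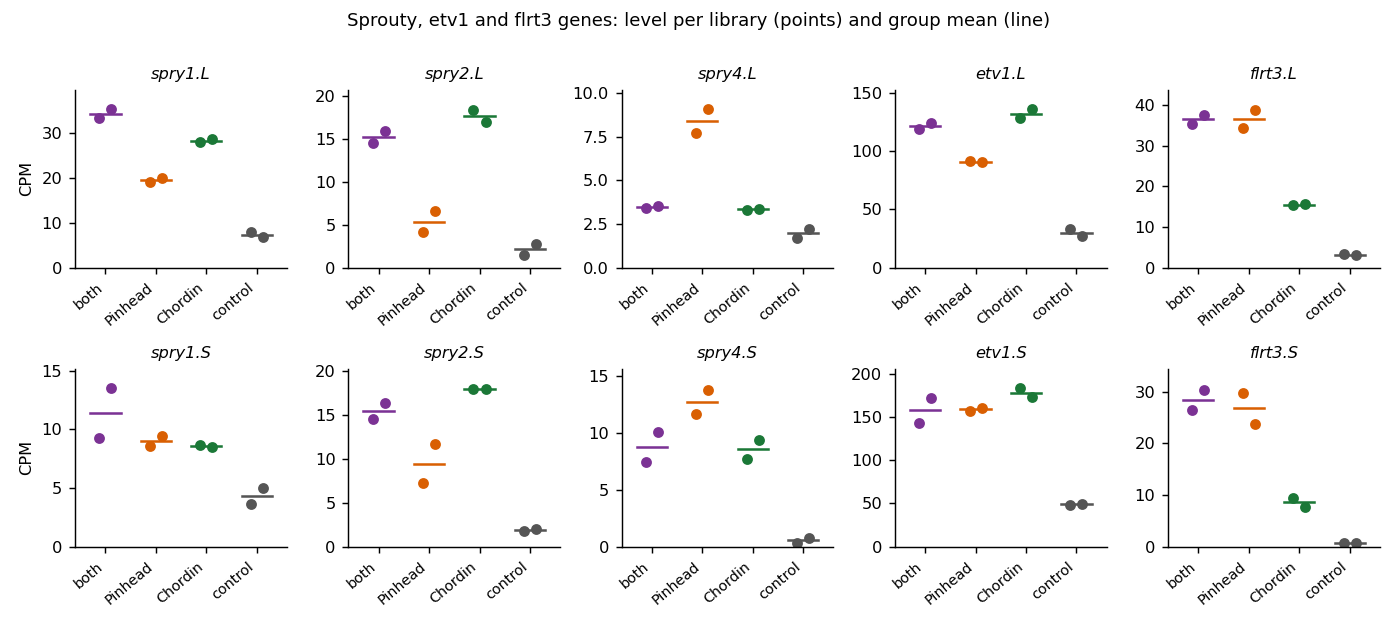
Level (CPM) of the spry1, spry2, spry4, etv1 and flrt3 copies in each library (points) with the group mean (bar), one panel per gene with its own axis from 0. All 3 treated groups stood above control in every panel; spry4.L was highest with Pinhead alone, and flrt3 was as high with Pinhead alone as with both factors.

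Spred proteins are relatives of Sprouty that inhibit the Ras to ERK step. Their transcripts rose with Chordin in all 4 tested copies, by 0.81 to 1.59 on the log2 scale, where 31.7% of all tested genes rose. spred1.L was at 23.9 and 26.9 CPM with both factors, 15.9 and 16.7 CPM with Pinhead, 31.9 and 27.8 CPM with Chordin, and 12.43 and 9.78 CPM in control. spred2.L was at 68.6 and 60.7 CPM with both factors, 62.6 and 54.0 CPM with Pinhead, 65.3 and 62.8 CPM with Chordin, and 34.6 and 36.3 CPM in control. Pinhead raised spred2.L by 0.72 ± 0.11 (adjusted p = 0.00436, lost without library 1) and spred1.L by 0.55 ± 0.15 (adjusted p = 0.0457, lost without any 1 of libraries 1 to 6). In the combined group all 4 rose against control, where 33.3% of all tested genes rose. The change of spred1.S was 0.81 ± 0.31 (adjusted p = 0.0414, lost without any 1 of libraries 1, 2, 3, 4, 7 and 8). Against Chordin alone the 4 log2 changes lay between -0.79 and 0.26, with adjusted p of 0.0997 or more.

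The MAP kinase phosphatases, dual-specificity enzymes that dephosphorylate ERK and its relatives, held 17 tested copies, of which 10 rose and 4 fell with both factors (58.8% and 23.5%, against 33.3% and 32.1% of all tested genes). With Pinhead 1 rose and 2 fell (5.88% and 11.8%, against 6.75% and 3.92%), and with Chordin 8 rose and 5 fell (47.1% and 29.4%, against 31.7% and 32%). The shares that fell with Chordin and that rose with Pinhead were near the background. Without library 1 the 10 became 5; the 5 became 3 without library 3, the 4 became 2 without library 1, 2 or 8, and the 2 became 0 without any 1 of libraries 1 to 5 and 1 without library 6. dusp6, an ERK-specific phosphatase that is a standard FGF feedback gene, rose in no comparison between groups. The interaction of dusp6.L was positive (0.81 ± 0.19, adjusted p = 0.0294, lost without any 1 of libraries 1 to 5). dusp6.L was at 41.8 and 39.0 CPM with both factors, 29.4 and 39.8 CPM with Pinhead, 35.9 and 36.9 CPM with Chordin, and 56.2 and 52.8 CPM in control. It was lower than control in all 3 treated groups, with log2 changes of -0.43 ± 0.13 with both factors (adjusted p = 0.0186, lost without library 1, 2 or 8), -0.66 ± 0.14 with Pinhead (adjusted p = 0.0166, lost without any 1 of libraries 1 to 5) and -0.58 ± 0.14 with Chordin (adjusted p = 0.00421, lost without library 3). dusp6.S was at 28.7 and 23.2 CPM with both factors, 19.8 and 27.5 CPM with Pinhead, 20.3 and 19.4 CPM with Chordin, and 28.3 and 27.2 CPM in control. Its decrease passed the test with Chordin (log2 change -0.48 ± 0.16, adjusted p = 0.0282, lost without any 1 of libraries 1 to 4).

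Of the other ERK-directed enzymes, those that rose with Chordin included dusp5.S, dusp7.L and both dusp4 copies. Their copies dusp5.L and dusp7.S were not called with Chordin (log2 change -0.18 and -1.34). dusp5.L was at 46.4 and 54.2 CPM with both factors, 41.2 and 48.2 CPM with Pinhead, 38.2 and 30.9 CPM with Chordin, and 41.8 and 36.5 CPM in control. dusp7.S was at 0.187 and 0 CPM with both factors, 1.11 and 1.31 CPM with Pinhead, 0.166 and 0.273 CPM with Chordin, and 0.422 and 0.722 CPM in control. dusp5.S was at 43.1 and 42.0 CPM with both factors, 17.1 and 21.3 CPM with Pinhead, 58.9 and 53.7 CPM with Chordin, and 19.98 and 16.1 CPM in control, a log2 change of 1.64 ± 0.14 with Chordin (adjusted p = 8.71e-06). dusp7.L was at 11.9 and 9.79 CPM with both factors, 3.69 and 3.16 CPM with Pinhead, 15.2 and 15.5 CPM with Chordin, and 3.5 and 3.94 CPM in control, a log2 change of 2.05 ± 0.18 with Chordin (adjusted p = 9.36e-06). dusp4.S, a nuclear phosphatase of ERK, was the 1 phosphatase higher with Pinhead (0.94 ± 0.22, adjusted p = 0.0271, lost without library 1, 2 or 5). Its log2 change with Chordin was also 0.94, and that call was kept. dusp4.L rose with Chordin by 0.39 (adjusted p = 0.0284, lost without library 1, 2 or 4) and was not called with Pinhead (-0.19).

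dusp10.L and dusp16.S, whose enzymes act mainly on the stress kinases p38 and JNK, also rose with Chordin. dusp10.L was at 3.61 and 4.87 CPM with both factors, 0 and 0.275 CPM with Pinhead, 5.20 and 6.66 CPM with Chordin, and 0.543 and 0.197 CPM in control. Its log2 change with Chordin was 3.95 (adjusted p = 0.000161), and 4.87 without control library 1. dusp16.S rose with Chordin by 1.87 ± 0.22 (adjusted p = 7.7e-05) and with both factors by 1.94 ± 0.22 (adjusted p = 6.05e-05). The other copy, dusp16.L, was not called with Chordin (log2 change 0.04) or with both factors (-0.23).

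dusp1, an immediate-early phosphatase of stress and growth signals, split by copy. dusp1.L was at 42.2 and 47.8 CPM with both factors, 87.3 and 75.8 CPM with Pinhead, 47.6 and 53.3 CPM with Chordin, and 110 and 106 CPM in control. dusp1.S was at 13.7 and 19.0 CPM with both factors, 11.8 and 13.4 CPM with Pinhead, 4.60 and 6.50 CPM with Chordin, and 10.9 and 11.3 CPM in control. Both fell with Chordin (log2 change -1.10 ± 0.11 and -0.999 ± 0.22, adjusted p = 2.69e-05 and 0.00292). Adding Pinhead to Chordin raised dusp1.S by 1.56 ± 0.21 (adjusted p = 0.00205) and left dusp1.L at -0.16 ± 0.11 (adjusted p = 0.421). Among the 12 tested dual-specificity phosphatases outside the MAP kinase group, 6 rose and 3 fell with Chordin (50% and 25%, against 31.7% and 32% of all tested genes). Of these, dusp14.L fell with Chordin (log2 change -2.71 ± 0.36, adjusted p = 0.000158) and dusp22.L rose (1.19 ± 0.27, adjusted p = 0.00377).

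etv1, named for an ETS transcription factor of the PEA3 group whose members are transcribed in response to FGF, rose in all 3 treated groups. etv1.L was at 119 and 124 CPM with both factors, 91.6 and 90.5 CPM with Pinhead, 128 and 136 CPM with Chordin, and 32.8 and 27.1 CPM in control. etv1.S was at 143 and 172 CPM with both factors, 158 and 161 CPM with Pinhead, 184 and 173 CPM with Chordin, and 48.6 and 49.5 CPM in control. The log2 changes of the .L and .S copies were 2.02 ± 0.11 and 1.69 ± 0.10 with both factors, 1.60 ± 0.11 and 1.70 ± 0.10 with Pinhead (adjusted p = 5.78e-05 and 4.18e-05), and 2.14 ± 0.11 and 1.86 ± 0.10 with Chordin (adjusted p = 3.98e-07 and 7.41e-07). Neither copy differed past the threshold between the combined group and Chordin alone (-0.12 ± 0.10 and -0.18 ± 0.10, adjusted p = 0.51 and 0.318), and both interactions were negative (-1.73 ± 0.15 and -1.88 ± 0.14, adjusted p = 0.000349 and 0.000257). The RefSeq gene table (assembly version 10.1) has etv1.S but no etv1.L and lists Etv1 as another name of etv4.L, so which relative the etv1.L row counts is not settled here.

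etv2.L, an ETS factor known for blood and endothelial fate, followed Chordin: 7.91 and 6.71 CPM with both factors, 0.264 and 0.550 CPM with Pinhead, 29.5 and 32.6 CPM with Chordin, and 0.724 and 1.18 CPM in control. It rose with Chordin by 5.03 ± 0.25 (adjusted p = 3.32e-07), and adding Pinhead to Chordin lowered it (log2 change -2.09 ± 0.18, adjusted p = 0.000218). The summed level of 14 blood and endothelial marker genes was 3.55 to 6.21 CPM with both factors, 4.17 to 4.27 CPM with Pinhead, 1.55 to 2.08 CPM with Chordin and 1.38 to 1.45 CPM in control, and none of the 14 reached 1 CPM in both Chordin libraries.

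The rule also took in genes that share the name but not the role. fgf14 encodes an intracellular FGF-related protein that binds sodium channels, and its copies went opposite ways with Chordin: fgf14.L rose by 1.96 ± 0.30 (adjusted p = 0.000378) and fgf14.S fell (log2 change -2.38 ± 0.20, adjusted p = 7.08e-06). fgfr1op.L, which RefSeq names cep43.L, a centrosome gene and not a receptor, was at 28.6 and 29.1 CPM with both factors, 78.8 and 70.2 CPM with Pinhead, 26.6 and 25.0 CPM with Chordin, and 73.0 and 84.4 CPM in control.

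**Figure D5:**
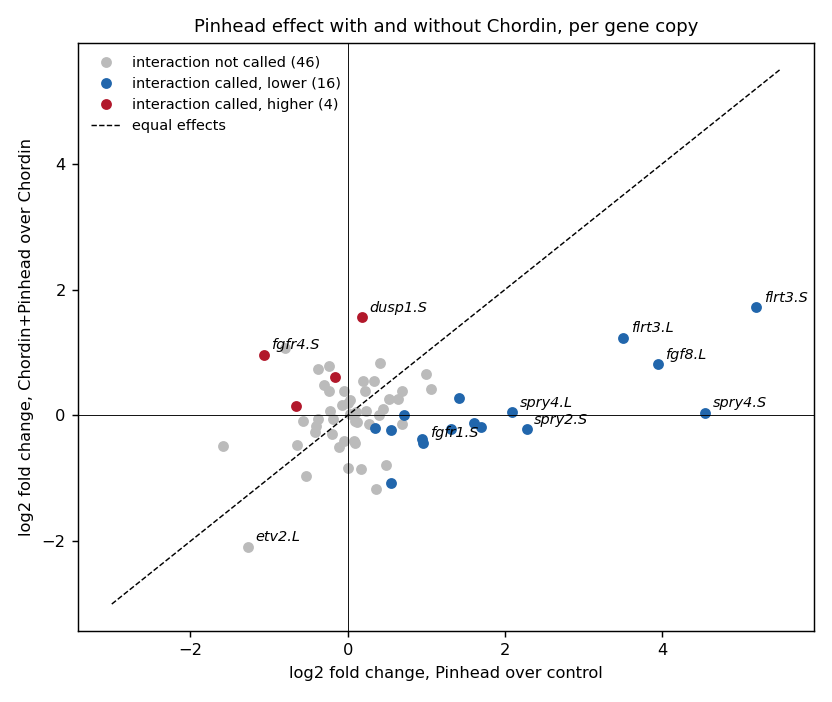
Log2 change by Pinhead without Chordin (Pinhead against control, horizontal) and with Chordin (Chordin+Pinhead against Chordin, vertical) for the 66 tested members with a fitted change; the dashed line marks equal effects. Of these, 41 lie below the line, a count for which no share over all tested genes was computed. The 16 blue points with a negative interaction include 5 of the 6 Sprouty copies (not spry1.S) and the etv1, flrt3 and fgf8.L copies, while fgfr4.S and dusp1.S are among the 4 red points above the line.

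The effect of Pinhead was measured on 2 backgrounds that share no libraries. Of the 23 genes that rose with Pinhead without Chordin, 5 also rose with Pinhead in the presence of Chordin, 1 fell and 17 did not pass the test (21.7%, 4.35% and 73.9%). Of all tested genes that rose with Pinhead without Chordin, 16.9% also rose, 5.76% fell and 77.3% did not pass, so the shares among the 23 were near the background. Without library 1 the 5 became 2 and the 17 became 7; the 5 became 3 without library 2, 3 or 4 and 10 without library 7, the 17 became 9 to 11 without any 1 of libraries 2 to 6, and the 1 became 0 without library 3 or 4. Of the 49 not called without Chordin, 4 rose and 6 fell with Pinhead in its presence (8.16% and 12.2%, against 5.44% and 3.93% of all tested genes); without library 3 these became 2 and 2, and without library 4 they became 2 and 3. In a principal component view of the tested members, the first component held 74.1% of the variance and placed the combined libraries (5.65 and 6.01) beside Chordin (6.11 and 6.15) and apart from Pinhead (-4.56 and -3.76) and control (-7.75 and -7.86). The second held 18.8% and placed the combined libraries (0.69 and 1.86) between Pinhead (4.14 and 4.68) and Chordin (-2.34 and -2.49), with control at -3.42 and -3.12. No such view was made of all tested genes, of which more also changed with Chordin than with Pinhead.

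The kinase cascade itself, listed as 47 genes from the adaptors to ERK and its negative regulators, changed with Chordin and with both factors in shares near those of all tested genes. Of 46 tested genes, 17 rose and 16 fell with both factors (37% and 34.8%, against 33.3% and 32.1%), 6 rose and 1 fell with Pinhead (13% and 2.17%, against 6.75% and 3.92%), and 16 rose and 15 fell with Chordin (34.8% and 32.6%, against 31.7% and 32%). The median log2 change was 0.14 with both factors, 0.06 with Pinhead and 0.05 with Chordin. ksr1.L, a scaffold that brings Raf, MEK and ERK together, was at 28.0 and 25.8 CPM with both factors, 10.1 and 8.88 CPM with Pinhead, 34.5 and 36.5 CPM with Chordin, and 3.56 and 5.25 CPM in control. It rose with Chordin by 3.02 ± 0.17 (adjusted p = 7.67e-07) and with Pinhead by 1.11 ± 0.18 (adjusted p = 0.00608, lost without library 1 or 5), and its interaction was -1.51 ± 0.23 (adjusted p = 0.00561). map2k1.S, which encodes MEK, the kinase of ERK, was at 14.1 and 13.3 CPM with both factors, 29.5 and 33.0 CPM with Pinhead, 13.01 and 11.8 CPM with Chordin, and 44.7 and 39.0 CPM in control, a log2 change with Chordin of -1.75 ± 0.12 (adjusted p = 2.42e-06). Without library 1 the 16 cascade genes higher with Chordin became 10, the 17 higher with both factors 9 and the 6 higher with Pinhead 0. The 17 became 8 without library 2 and 11 without library 7, and the 6 became 2 without library 2, 1 without library 5 and 3 without library 3, 4 or 6. The 1 cascade gene that fell with Pinhead, map2k1.S, was not called without any 1 of libraries 1 to 6.

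Of 38 tested genes for heparan sulfate chains, their core proteins and other FGF-binding partners, 21 rose and 7 fell with both factors (55.3% and 18.4%, against 33.3% and 32.1% of all tested genes). With Pinhead 4 rose (10.5%, against 6.75%), and with Chordin 18 rose and 7 fell (47.4% and 18.4%, against 31.7% and 32%). The median log2 change was 0.82 with both factors, 0.15 with Pinhead and 0.34 with Chordin. gpc4.L, a heparan sulfate core protein of the glypican family, was at 225 and 245 CPM with both factors, 50.6 and 42.2 CPM with Pinhead, 172 and 160 CPM with Chordin, and 32.5 and 30.6 CPM in control, a log2 change with Chordin of 2.40 ± 0.11 (adjusted p = 2.77e-07). ndst1.S, an enzyme that sulfates the chains, was at 58.2 and 56.2 CPM with both factors, 13.8 and 13.2 CPM with Pinhead, 51.9 and 47.2 CPM with Chordin, and 9.78 and 9.84 CPM in control (2.34 ± 0.11 with Chordin, adjusted p = 2.11e-07). sulf1.L, which removes sulfate from the chains and is known in the frog to limit FGF signalling, was at 22.7 and 39.0 CPM with both factors, 23.9 and 26.3 CPM with Pinhead, 12.7 and 13.3 CPM with Chordin, and 8.75 and 7.02 CPM in control. It rose with Pinhead by 1.66 ± 0.24 (adjusted p = 0.00358, lost without library 2), and adding Pinhead to Chordin raised it by 1.25 ± 0.23 (adjusted p = 0.00817, lost without library 3 or 4). klb.L, a co-receptor for endocrine FGFs, was at 0.0623 and 0.0559 CPM with both factors and 18.1 and 15.1 CPM with Pinhead, against 0 and 0.0546 CPM with Chordin and 11.5 and 8.86 CPM in control. The 4 genes higher with Pinhead became 1 without library 1 or 5, 0 without library 2, 2 without library 3 or 4 and 7 without library 7 or 8. Only gene names, not lengths, were at hand, so levels are compared within a gene and not between genes.

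Another list held genes known to respond to FGF or ERK in vertebrate embryos, called targets here. It was chosen with earlier results of these data known, so its shares describe the list and are no independent test. Of its 41 tested genes, 19 rose and 7 fell with both factors (46.3% and 17.1%, against 33.3% and 32.1% of all tested genes). With Pinhead 19 rose and 1 fell (46.3% and 2.44%, against 6.75% and 3.92%). With Chordin 13 rose and 10 fell (31.7% and 24.4%, against 31.7% and 32%), so the share that rose was that of all tested genes. The median log2 change was 0.98 with both factors, 0.52 with Pinhead and -0.26 with Chordin. Among the targets that rose with Chordin were hesx1.L, by 6.63 ± 0.22 (adjusted p = 3.26e-08), and lin28a.L, by 1.80 ± 0.10 (adjusted p = 8.56e-07). The interaction was positive for hesx1.L (adjusted p = 0.00541) and negative for lin28a.L (-1.09 ± 0.14, adjusted p = 0.00277). No interaction fold is given for hesx1.L, since the Pinhead group held 3 counts or fewer. With both factors hesx1.L was at 3784 times Pinhead alone (counting interval 679 to 149503). Over the targets, the interaction was positive for 3 and negative for 7 (7.32% and 17.1%, against 5.24% and 5.72% of all tested genes). t.S, a copy of the gene for Brachyury, the T-box factor that maintains mesoderm and forms a loop with FGF ligands in the frog, was at 0.997 and 4.14 CPM with both factors, 42.8 and 72.0 CPM with Pinhead, 0.221 and 0.492 CPM with Chordin, and 0.543 and 0.787 CPM in control. It rose with Pinhead by 6.42 ± 0.55 (adjusted p = 0.000188), and the combined group was lower than Pinhead alone (log2 change -4.44 ± 0.45, adjusted p = 2.85e-05; -3.81 without library 7 and -5.81 without library 8). cdx2.L, a posterior homeobox gene downstream of FGF, was at 5.11 and 21.98 CPM with both factors, 250 and 296 CPM with Pinhead, 0.221 and 0.164 CPM with Chordin, and 38.6 and 25.4 CPM in control. Against control, cdx2.L was lower with both factors (log2 change -1.23, adjusted p = 0.0445, lost without any 1 of libraries 1 to 6). In the same comparison cdx1.S and cdx4.S were higher (3.30 and 2.90, adjusted p = 0.00211 and 0.00569, that of cdx4.S lost without library 2). With 1 library left out these 2 values ranged from 2.01 to 4.38 and from 1.41 to 4.34. The 2 combined libraries differed from each other in t.S and cdx2.L, library 8 being the higher. The target list shares t with the notochord list and tbx6 and mespa with the somite list, so their sums are not independent of it. myc.S, a growth regulator, rose with Pinhead by 1.17 ± 0.09 and with Chordin by 2.60 ± 0.10 (adjusted p = 0.000121 and 6.54e-08), with an interaction of -1.32 ± 0.13 (adjusted p = 0.000658).

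il17rd.S, the gene for Sef, an inhibitor of FGF receptor signalling that is transcribed with fgf8 in vertebrate embryos, also rose in the 3 treated groups. It was at 118 and 142 CPM with both factors, 40.9 and 66.6 CPM with Pinhead, 120 and 119 CPM with Chordin, and 10.9 and 11.8 CPM in control. It rose by 3.52 ± 0.22 with both factors, 2.24 ± 0.22 with Pinhead and 3.39 ± 0.22 with Chordin (adjusted p = 1.57e-06, 0.000381 and 1.63e-06), and its interaction was -2.12 ± 0.29 (adjusted p = 0.00321). Some counts of the target list moved by library: the 10 genes lower with Chordin became 6 without library 1, 3 or 4, and the 1 gene lower with Pinhead became 0 without library 2 or 5 and 3 without library 6.

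Both copies could be tested in 29 gene pairs. Both copies changed in the same direction in 17 pairs with both factors, 7 with Pinhead and 17 with Chordin (58.6%, 24.1% and 58.6%, against 44.4%, 4.49% and 40.7% of all 6596 tested pairs), and in opposite directions in 4 with both factors and 2 with Chordin (13.8% and 6.9%, against 7.19% and 7.69%). The 7 pairs with Pinhead became 3 without library 1, 3, 4 or 6 and 4 without library 2 or 5. The 4 opposite pairs with both factors became 1 without library 1 or 2 and 2 without library 8, by DESeq2 1 and in a fit of the 2 groups alone 1. The opposite pairs with Chordin were fgf14 and dusp10.2, and with both factors also dusp1 and dusp7. The pair left by DESeq2 and in the fit of the 2 groups alone was dusp10.2. That of dusp7 rested on dusp7.S, with 3 counts in the combined group and 18 in control. The dusp7.S call was lost without library 2, 5, 6 or 8 and by DESeq2. dusp10.2.L was at 3.92 and 4.36 CPM with both factors, 9.39 and 6.74 CPM with Pinhead, 4.54 and 2.68 CPM with Chordin, and 8.75 and 7.48 CPM in control, while dusp10.2.S was at 1.00 and 1.29 CPM with both factors, had no counts with Pinhead, and was at 2.21 and 1.31 CPM with Chordin and 0.0603 and 0.394 CPM in control. The difference between copies was not tested, and since the sources used here do not say how reads that fit both copies were counted, the split between near-identical copies is uncertain.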

How the data were processed

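RNA was purified with RNeasy columns and sequenced as paired ends of 150 bp, per the labels' protocols. The authors deposited raw read counts per gene, in 2 run columns for each library, and reads were aligned with HISAT2, per the submitters' processing notes. The sources used here do not give its version, the counting tool or the genome build. The run columns of a library were summed, since they differed by a mean chi-square per gene of 1.39 to 1.53, against 3.19 to 12.8 between libraries of a group; 1 line of the table was not analysed here.

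Counts were analysed in R 4.3.3 with edgeR 4.0.16 (limma 3.58.1): TMM factors (0.950 to 1.05), filterByExpr (minimum count 10, minimum total 15), 1 coefficient per group over all 8 libraries with 4 residual degrees of freedom, and the quasi-likelihood test. P-values were adjusted over all 23130 tested genes by Benjamini-Hochberg, and a gene was called to rise or fall at an adjusted p under 0.05; the common dispersion was 0.0140. The 6 comparisons were the 3 treated groups against control, the combined group against each single factor, and the interaction. The SE after ± is the absolute log2 change divided by the square root of the F statistic of the quasi-likelihood test. It is not a standard error reported by the fit. Where a group held 3 counts or fewer, a fold is a lower bound (0 counts) or a ratio of CPM with a 95% counting interval, which covers counting error only. The alternatives were DESeq2 1.42.0, RLE factors, library totals alone, no filter, fits on 2 groups and each library left out in turn. Figures (matplotlib 3.10.9 under Python 3.11.15) show CPM or log2 values with a pseudocount of 1.

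The genes and lists were chosen with earlier results of these data known, so shares of a list set beside all tested genes are descriptions only. Named were fixed FGF, receptor, FLRT, Sprouty, Spred, phosphatase and ETS genes, other members called with at least 2-fold change and a mean of 5 CPM (up to 5 per role and comparison), and up to 4 genes per pathway list and comparison. Of the 120 symbols, 99 are in the RefSeq table. No sequence was used.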

Additional observations from a re-analysis of the deposited data

Results flagged for a closer look

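For 21 of 75 tested members the Pinhead effect differed between explants with and without Chordin, by the interaction test (log2 of the effect with Chordin minus the effect without it). Of the feedback genes, this held for spry1.L (-1.14), spry2.L (-1.54), spry2.S (-2.49), spry4.L (-2.04), spry4.S (-4.51), spred1.L (-0.79), spred2.L (-0.71), etv1.L (-1.73) and etv1.S (-1.88). Of the phosphatases it held for dusp1.S (1.38), dusp4.S (-1.32) and dusp6.L (0.81), and of the FLRT genes for flrt3.L (-2.27) and flrt3.S (-3.47). Of the receptors it held for fgfr1.L (-0.55), fgfr1.S (-1.39), fgfr2.L (0.78) and fgfr4.S (2.03). Of the ligands it held for fgf8.L (-3.13) and fgf16.L (adjusted p = 0.0222, with no fold because control had 0 counts), and of the intracellular FGFs for fgf14.L (-1.61). The interaction was positive for 4 members and negative for 17 (5.33% and 22.7%, against 5.24% and 5.72% of all tested genes). The positive share was thus near that of all tested genes.

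Leaving out libraries ended some of these calls: those of spred2.L, dusp4.S and dusp6.L without any 1 of libraries 1 to 5, spred1.L without any 1 of 1 to 6, dusp1.S without 1, 2, 3 or 5, spry2.L without 1, 3, 4 or 6, fgfr1.L and fgf16.L without any 1 of 1 to 4, fgfr2.L without 1, 3 or 4, and fgf14.L without any 1 of 1 to 6 or 8. The value of spry4.S became -5.33 without library 2.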

How the results depend on the processing

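No named result reversed. Of 281 called results for named genes with a fitted fold change, 202 kept their call in every alternative; of 5773 alternative values, 330 lost the call and 102 gained one. Leaving out 1 library at a time also leaves fewer samples, and the counts of members that rose and fell then ranged from 40 to 47 and 9 to 13 for Chordin, 10 to 28 and 1 to 5 for Pinhead, 38 to 48 and 7 to 12 for both factors (each against control), 6 to 15 and 2 to 9 for both against Chordin, 31 to 36 and 9 to 14 for both against Pinhead, and 1 to 7 and 10 to 20 for the interaction. Without the count filter the 3 members that fell with Pinhead became 5; the cause was not tested. The other full-data settings kept these counts within 1.5 times. Counts over roles, lists and gene pairs, and of Pinhead calls shared between backgrounds, were run under the same alternatives, chosen after seeing the data. Of 9 tested ligand copies, 5 rose with Pinhead (55.6%, against 6.75% of all tested genes), and DESeq2 took these to 3. Of the 5, fgf16.L and fgf20.S had no counts in control, and fgf3.S and fgf20.L had 1 count each there. Copies so low in control can pass the count filter only through treated groups, so this share describes the tested copies alone. DESeq2 also took the receptor copies higher with Pinhead from 3 to 1 and the cascade genes higher with both factors from 17 to 7. It ended further calls for which only libraries are named above. Against control these were fgf2.L with Chordin and with both factors, and dusp4.L with Chordin. With Pinhead they were fgfr1.L, fgfr2.S, spred1.L and map2k1.S, and with both factors spred1.S and cdx2.L. Also ended were those of the combined group for fgfrl1.S against Chordin and fgf20.L against Pinhead, and the fgf14.L interaction. With library totals alone the median over all genes shifted to 0.12 for Chordin, 0.18 for both factors and 0.15 for both against Pinhead, and the calls of dusp1.L with Pinhead, dusp6.S with Chordin and dusp6.L with both factors were lost. With 2 libraries per group and 3 counts over a group at 0.0825 to 0.0943 CPM, ligands near 1 CPM were resolved poorly. No paired analysis was possible because the library numbers are not shared between groups.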
